A study of Rattus norvegicus with 96 samples.

Results

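The constitutive proteasome subunit genes were examined in blood RNA of rats that had inhaled crystalline silica or air. Members were the rows of an Illumina rat BeadChip table whose gene symbol had the form of a Psm subunit gene with a number (Psma to Psmg), without the immunoproteasome genes Psmb8, Psmb9 and Psmb10, and with a detection p under 0.05 on 4 or more arrays. A total of 35 rows matched by symbol, each from a different gene, and 34 passed, out of 12306 genes tested. The row that did not pass, Psmc3ip, was detected on 1 array, and it codes for a recombination cofactor and not for a proteasome subunit. Of the 34 members, 30 were detected on all 96 arrays, Psmc3 on 95, Psmd8 on 75, Psmc6 on 67 and Psma3 on 27.

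The animals were male CDF Fisher 344 rats (an inbred strain, spelled here as in the labels), labelled 3 months old at every time. They inhaled silica or air for 6 hours a day over 5 days. In the 15 mg/m3 set, 8 silica rats and 4 air rats were killed at each of weeks 0, 1, 2, 4, 8 and 16 after exposure. In the 1 mg/m3 and 2 mg/m3 sets, 8 silica rats and 4 air rats each were killed 16 hours after the last exposure, here called week 0. The study asked whether a blood signature of silica from the 15 mg/m3 rats at week 0 also marks the lower doses. Total RNA of blood was depleted of globin mRNA and hybridised at 1 array a rat. Blood holds many cell types, so fewer cells of a type and less RNA per cell cannot be told apart.

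The proteasome degrades proteins that carry ubiquitin chains. Its 20S core is a barrel of alpha rings (Psma genes) that gate entry and beta rings (Psmb genes), of which Psmb5, Psmb6 and Psmb7 carry the chymotrypsin-like, caspase-like and trypsin-like active sites. The 19S cap adds a ring of ATPases that unfold substrates (Psmc genes) and a lid and base that bind and deubiquitinate them (Psmd genes), while Psme1 and Psme2 form the PA28 activator, which interferon induces. In immune cells the inducible subunits Psmb8, Psmb9 and Psmb10 replace Psmb5, Psmb6 and Psmb7 to form the immunoproteasome. In mouse and human cells the transcription factor Nrf1 (gene Nfe2l1) raises many subunit genes together, through antioxidant response elements, when proteasome activity is low.

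By role, the members were 7 alpha-ring genes (Psma1 to Psma7), 3 catalytic and 4 non-catalytic beta-ring genes, 6 ATPases (Psmc1 to Psmc6), 10 non-ATPase cap subunits, the cap assembly chaperones Psmd5 and Psmd9, and Psme1 and Psme2. Psma8, Psmb11, Psmd14, Psmd10, Psme3, Psme4, Psmf1 and Psmg1 to Psmg4 had no row under that symbol and were not analysed here. Of these, Psma8, Psmb11, Psme4, Psmg1 and Psmg2 have rows under other names, which the symbol rule did not take in. The table also holds rows for near-identical relatives of Psmb3, Psmb6, Psmc6 and Psma6, so signal on those 4 members may be shared with such copies.

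Arrays had 7642 to 9970 detected rows of 21792, and their median intensity before normalization was 61.5 to 137. The deposited labels do not give the chip. Arrays whose columns stood in the same run of 12 in the table deviated together (mean correlation of deviations from group means 0.139, against -0.029 between runs), and within the 15 mg/m3 set the first 4 runs hold every air rat and 4 of the 8 silica rats of each week. Blood cell markers were present: 12 erythroid markers averaged 10.44 to 10.79 and 11 neutrophil markers 7.96 to 8.37 in log2 intensity in the air groups. All levels below are log2 normalized intensities, differences are log2 silica minus air with the standard error (SE) of limma's moderated test, and a gene was called when its adjusted p was under 0.05. Levels of different genes come from different probes and cannot be ranked against each other.

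Promoter sequence from RefSeq (GRCr8) was matched for 31 of the 34 members, as windows of 250 bases before to 50 after the start, and not for Psmd12, Psmd6 and Psma7. The core of the antioxidant response element, TGACNNNGC searched on both strands, was in 7 of the 31 windows (22.6%) and in 12.2% of 27457 promoter windows of all genes, noncoding ones included. The holders were Psma3, Psmb2, Psmb5, Psmb6, Psmd1, Psmd3 and Psmd9. The NF-Y box CCAAT was in 15 (48.4%, against 37.7% of all windows) and the ETS motif CCGGAAG in 10 (32.3%, against 9.22%). The 250 bases before the start are shown for the 3 beta-ring holders of the element core, Psmb5, Psmb2 and Psmb6. These 3 were picked for display after their values were seen. Capitals mark the TGACNNNGC match, whose first base lies at -60 from the start of Psmb5, -68 from that of Psmb2 and -24 from that of Psmb6, and each sequence is read 5′ to 3′ on the gene's strand (Psmb5 at chr15:32047380-32047629, minus strand, Psmb2 at chr5:144254808-144255057, plus strand, and Psmb6 at chr10:55737638-55737887, plus strand).
Psmb5: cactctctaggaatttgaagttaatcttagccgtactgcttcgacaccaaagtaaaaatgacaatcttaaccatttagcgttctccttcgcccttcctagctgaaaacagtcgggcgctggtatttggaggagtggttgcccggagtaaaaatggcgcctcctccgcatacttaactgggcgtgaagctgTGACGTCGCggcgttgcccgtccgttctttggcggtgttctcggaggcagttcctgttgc
Psmb2: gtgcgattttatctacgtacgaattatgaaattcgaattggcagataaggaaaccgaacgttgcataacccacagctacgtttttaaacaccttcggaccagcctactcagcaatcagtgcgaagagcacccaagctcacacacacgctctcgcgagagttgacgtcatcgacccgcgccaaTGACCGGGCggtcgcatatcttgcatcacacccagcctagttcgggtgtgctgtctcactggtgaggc
Psmb6: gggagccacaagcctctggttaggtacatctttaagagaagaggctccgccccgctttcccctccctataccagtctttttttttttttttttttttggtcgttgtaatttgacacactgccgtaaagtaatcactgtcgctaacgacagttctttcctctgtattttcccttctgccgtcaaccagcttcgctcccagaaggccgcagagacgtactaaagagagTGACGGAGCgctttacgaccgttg
The start is that of the promoter window. For Psmb6 the annotated gene begins upstream of it, at chr10:55737852, so its match lies inside the gene. The annotated genes of Psma3, Psmd3 and Psmd9 also begin upstream of their window's start. A match describes letters in a window and was not tested as a bound site.

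The first question was whether silica moved these genes in blood. Across the 8 comparisons of silica with air rats of the same set and week, 1 member was called in 1 comparison, which was Psmb5, lower at week 16 after 15 mg/m3. The median difference over the 34 members lay between -0.05 and 0.03 in every comparison, and the median over all genes was near 0. The 272 values (34 members in 8 comparisons) ran from -0.33 to 0.36. In 269 of the 272 the 95% interval lay inside a 1.5-fold change in either direction, and the bounds over all 272 ran from -0.58 to 0.76.

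**Figure D1:**
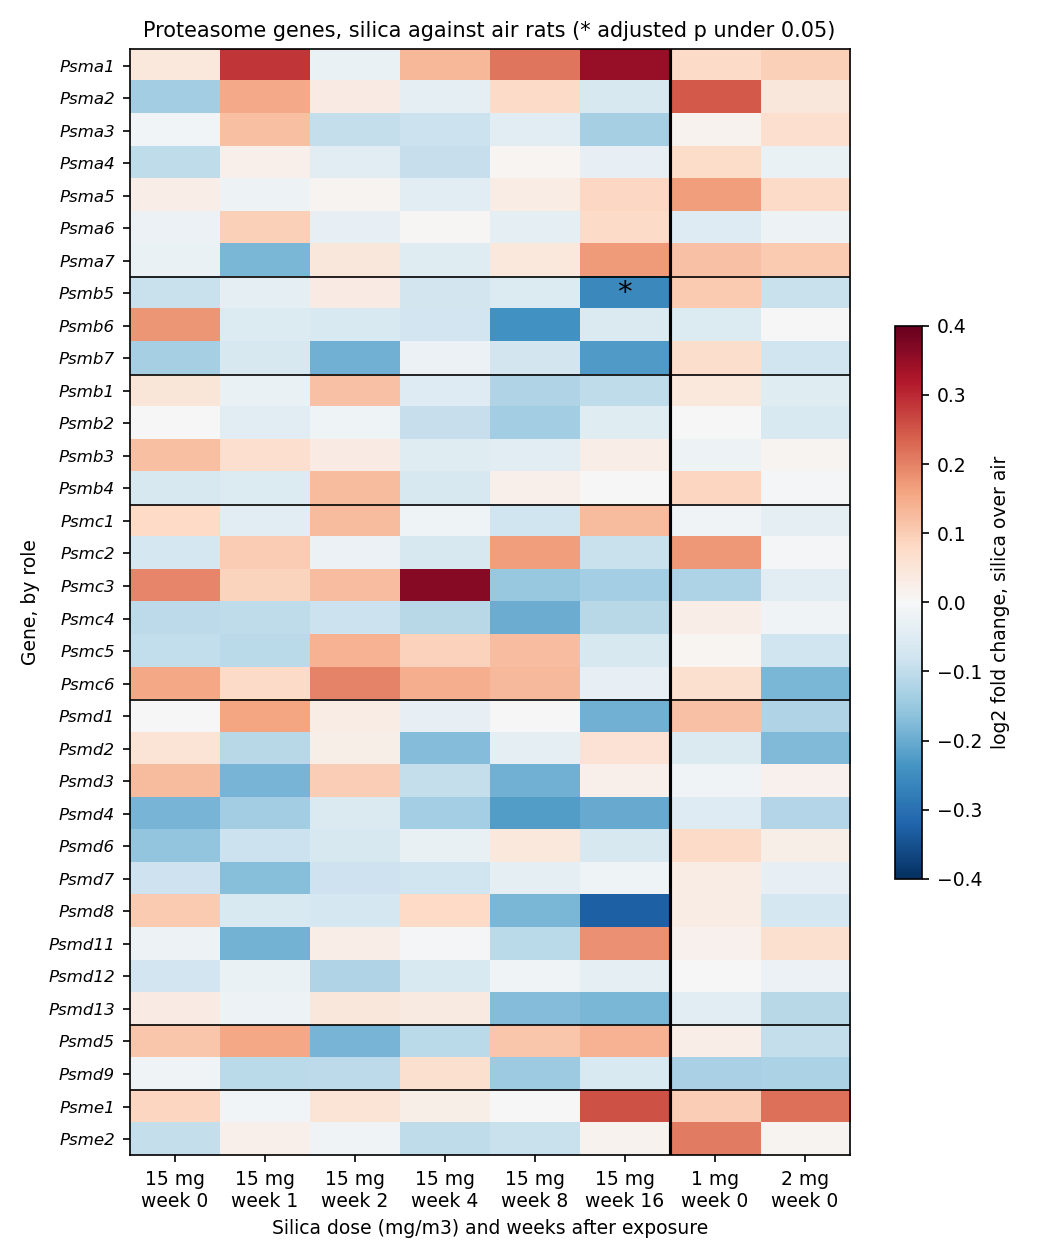
Log2 difference between silica and air rats for each of the 34 members (rows, by role) in the 8 comparisons (columns), with the colour scale ending at -0.4 and 0.4 and the called value marked. Most cells are pale, and the marked cell is Psmb5 at week 16 after 15 mg/m3 (-0.26).

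At week 16 after 15 mg/m3, Psmb5, the chymotrypsin-like subunit that most proteasome inhibitors target, was 9.97, 9.88, 9.93 and 9.92 in the 4 air rats. In the 8 silica rats it ran from 9.50 over a median of 9.66 to 9.81. All 8 silica rats lay below all 4 air rats. The difference was -0.26 ± 0.06 (95% interval -0.38 to -0.13, 8 silica and 4 air rats), a 1.19-fold lower level, with a Benjamini-Hochberg adjusted p of 0.00739 in limma's moderated test. In this comparison 1 of 34 members (2.94%) was called, against 4.78% of all genes tested (588 of 12306), so the share of members was near the background.

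With only the 12 arrays of these groups the difference of Psmb5 was again -0.26 and its adjusted p 0.104, and with only arrays of the first 4 column runs the difference was -0.23 ± 0.07 with an adjusted p of 0.102. The call held in limma's test when any 1 of the 12 rats was left out (adjusted p from 0.00388 to 0.0342).

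The other catalytic subunits were not called at week 16. Psmb7, the trypsin-like subunit, was 9.98, 10.13, 10.25 and 10.25 in air rats and 9.70 to 10.08 (median 9.96) in silica rats, and the groups overlapped. Its difference was -0.23 ± 0.07 (limma's adjusted p 0.0533), with 8 of 8 silica rats below the air mean. Psmb6, the caspase-like subunit, was 10.71, 10.81, 11.02 and 10.89 in air rats and 10.48 to 11.18 (median 10.74) in silica rats, a difference of -0.06 ± 0.11 (limma's adjusted p 0.842) within the spread between rats.

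Of the inducible counterparts, 1 of 3 was called at week 16. Psmb9, the inducible counterpart of Psmb6, was 9.27, 8.88, 8.92 and 8.82 in air rats and ran from 9.18 over a median of 9.48 to 9.95 in silica rats. All 8 silica rats lay above the air mean, and the lowest lay below the highest air rat. The difference was 0.59 ± 0.15 with a limma adjusted p of 0.00903, and it was called. Psmb8 (0.21 ± 0.11, adjusted p 0.284) and Psmb10 (0.08 ± 0.08, adjusted p 0.660), the counterparts of Psmb5 and Psmb7, were not called by limma.

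**Figure D2:**
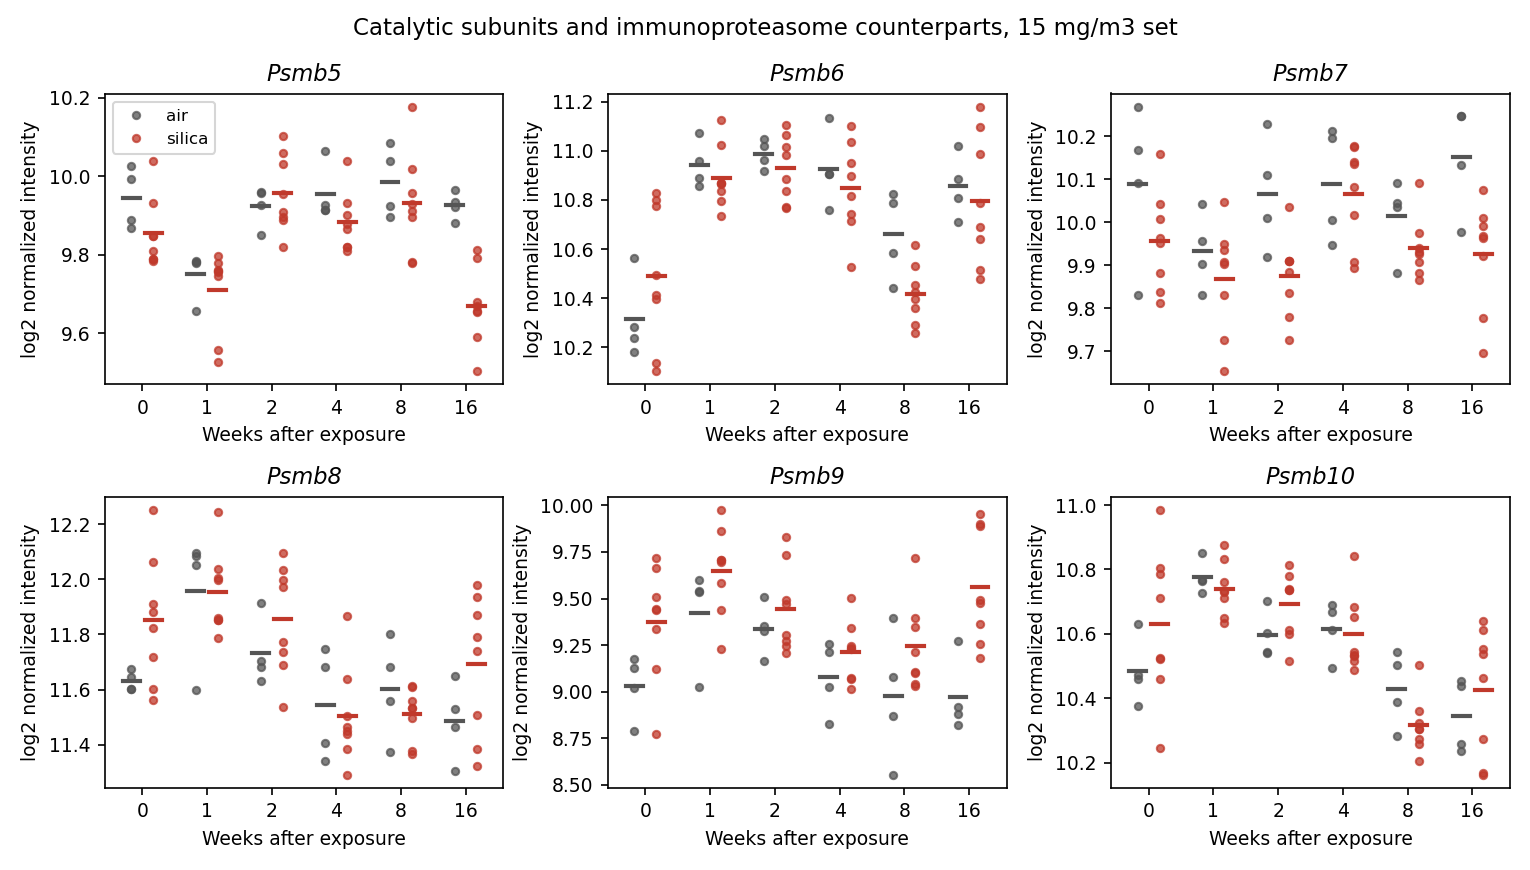
Log2 intensity of the catalytic subunits Psmb5, Psmb6 and Psmb7 (upper row) and of the immunoproteasome genes Psmb8, Psmb9 and Psmb10 (lower row) by week after exposure in air (grey) and silica (red) rats of the 15 mg/m3 set (points are rats, bars are group means). Air and silica rats of Psmb5 separate at week 16, where air rats lie between 9.88 and 9.97 and silica rats between 9.50 and 9.81.

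Among the activators at week 16, Psme1 was 12.75, 12.68, 12.71 and 12.72 in air rats. In the silica rats it was 12.65, 12.78, 12.70, 13.11, 13.12, 12.97, 13.08 and 13.33, so that 6 rats lay above all air rats and 2 did not. The difference was 0.25 ± 0.09 (limma's adjusted p 0.0833), and the silica rats spread more (SD 0.24) than the air rats (SD 0.03). Psme2, its partner in PA28, differed by 0.01 ± 0.09 (limma's adjusted p 0.964).

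In the 19S cap at week 16, Psmd11, a lid subunit, was 11.18, 11.18, 10.98 and 10.94 in air rats and 11.03 to 11.46 (median 11.25) in silica rats. It differed by 0.18 ± 0.06 (limma's adjusted p 0.0777), with 7 of 8 silica rats above the air mean and overlapping groups. The lid subunit Psmd13 differed by -0.18 ± 0.08 (limma's adjusted p 0.186), and Psmd8, another lid subunit near the detection limit on this chip, by -0.33 ± 0.13 (limma's adjusted p 0.119). Psma1 of the alpha ring differed by 0.35 ± 0.13 (limma's adjusted p 0.115). In limma's test an unadjusted p under 0.05 was reached by 7 of 34 members, 3 higher and 4 lower. None of the 6 ATPases was among them. Over all genes the share was 18.3%, so the count of members was near the background.

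Marker genes of blood cells moved in the same comparison. Of 11 neutrophil markers, 10 were called higher at week 16, and their mean level per rat was 8.85 to 9.59 in silica rats and 8.15 to 8.50 in air rats. The 12 erythroid markers had means of 10.78 in silica and 10.79 in air rats with none called. Of the 9 T cell markers 1 was called lower, and of 5 monocyte markers 1 was called lower. No B cell, NK or platelet marker was called. The part of these markers in the differences of Psmb5 and Psmb9 was not tested.

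At the earlier weeks after 15 mg/m3 no member was called. Over all genes, 0.0163% were called at week 0, 0.39% at week 1, 0.0325% at week 2, 0.122% at week 4 and 0.268% at week 8. In limma's test an unadjusted p under 0.05 was reached by 1, 5, 2, 0 and 7 of 34 members at these weeks. Over all genes the share was 9.08%, 11.2%, 9.09%, 9.39% and 9.24%. At week 0 the lowest p among members was that of Psmd6, a lid subunit, which was 10.42, 10.35, 10.60 and 10.55 in air rats and 10.12 to 10.47 (median 10.32) in silica rats, a difference of -0.16 ± 0.06 (limma's adjusted p 0.370). All 8 silica rats lay below the air mean, and the groups overlapped. Psmb7 (-0.13 ± 0.07, limma's adjusted p 0.606) and the ubiquitin receptor Psmd4 (-0.19 ± 0.11, adjusted p 0.636) followed. This order depended on the arrays used. With only arrays of the first 4 column runs, Psmd3 had the lowest p among members (0.24 ± 0.09, limma's adjusted p 0.288). Psmd6 then differed by -0.14 ± 0.08 (limma's adjusted p 0.553).

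At week 1, Psmd11 was 11.41, 11.59, 11.49 and 11.46 in air rats and 11.12 to 11.38 (median 11.31) in silica rats. The groups did not overlap, and the difference of -0.19 ± 0.06 did not pass adjustment (limma's adjusted p 0.198). At week 16 the difference of the same gene had the other sign. Psmd7, a lid subunit (-0.17 ± 0.07, limma's adjusted p 0.305), and Psmd3, a lid subunit (-0.18 ± 0.08, adjusted p 0.365), followed at week 1. At that week 5 of 11 neutrophil markers were called higher (median difference 0.42), and their part in these values was not tested.

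At week 2, Psmb7 was 10.01, 9.92, 10.23 and 10.11 in air rats and 9.73 to 10.04 (median 9.90) in silica rats, a difference of -0.19 ± 0.07 (limma's adjusted p 0.348) with 8 of 8 silica rats below the air mean. The chaperone Psmd5 differed by -0.19 ± 0.08 (limma's adjusted p 0.436) and the ATPase Psmc1 by 0.13 ± 0.07 (adjusted p 0.601). At week 4 the lowest p values belonged to the ATPase Psmc3 (0.36 ± 0.20, limma's adjusted p 0.591), the cap scaffold Psmd2 (-0.17 ± 0.11, adjusted p 0.687) and the ATPase Psmc4 (-0.11 ± 0.07, adjusted p 0.694).

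At week 8, Psmc4 was 10.34, 10.18, 10.32 and 10.46 in air rats and 9.96 to 10.25 (median 10.13) in silica rats, a difference of -0.20 ± 0.07 (limma's adjusted p 0.255). Psmd3 differed by -0.19 ± 0.08 (limma's adjusted p 0.398), and Psmc2, also an ATPase, by 0.17 ± 0.07 (adjusted p 0.401) with 8 of 8 silica rats above the air mean. Of the 7 members with an unadjusted p under 0.05 at week 8, 6 were lower, and 6 of 11 neutrophil markers were called higher at that week.

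At the lower doses no member was called, and no gene was called at all (0% at 1 mg/m3 and 0% at 2 mg/m3 in limma's moderated test). At 1 mg/m3, Psma5 of the alpha ring was 9.04, 9.31, 9.23 and 9.43 in air rats and 9.26 to 9.57 (median 9.44) in silica rats, a difference of 0.17 ± 0.07 (limma's adjusted p 1.00). The ATPase Psmc2 also differed by 0.17 ± 0.07, and Psme2 by 0.21 ± 0.09, with 7 of 8 silica rats above the air mean for each, and limma's adjusted p of 1.00. An unadjusted p under 0.05 was reached by 4 of 34 members at 1 mg/m3, all higher, against 2.54% of all genes. At 2 mg/m3 it was reached by 1 member, against 4.71% of all genes.

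At 2 mg/m3 that member was Psme1, which was 13.04, 13.09, 12.97 and 13.10 in air rats and 13.05 to 13.54 (median 13.22) in silica rats. The difference was 0.22 ± 0.09 (limma's adjusted p 0.994). Psmd2 (-0.18 ± 0.11) and Psmb5 (-0.09 ± 0.06) followed, with adjusted p of 0.994 or more by limma. Psmb5 had no steady sign over the doses at week 0, with 0.10 at 1 mg/m3, -0.09 at 2 mg/m3 and -0.09 at 15 mg/m3.

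Whether the silica difference itself changed between weeks or doses was tested by interaction. For week 16 minus week 0 after 15 mg/m3, 0% of all genes and no member were called by limma. The lowest p values were those of Psmd8 (-0.43 ± 0.18, limma's adjusted p 0.749), Psmd11 (0.20 ± 0.09, adjusted p 0.788) and Psmd13 (-0.22 ± 0.11, adjusted p 0.788), and Psmb5 had -0.17 ± 0.09 (adjusted p 0.809). An unadjusted p under 0.05 was reached by 2 of 34 members there, against 6.20% of all genes. In the test over all weeks it was reached by 3 members, against 10.7% of all genes. Over all 6 weeks 0.146% of genes and no member were called, with Psmd11 lowest in p (F 3.91, limma's adjusted p 0.223), then Psmd5 (F 3.51, adjusted p 0.266) and Psmd3 (F 2.94, adjusted p 0.330). A silica difference of Psmb5 particular to week 16 was therefore not shown (F test over weeks, limma's adjusted p 0.474).

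Between doses at week 0, 0% of genes were called for 15 minus 1 mg/m3, 0% for 15 minus 2 mg/m3 and 0% for 2 minus 1 mg/m3, and no member in any. For 15 minus 1 mg/m3 the lowest p values belonged to Psmd6 (-0.24 ± 0.09), Psma2 of the alpha ring (-0.39 ± 0.16) and Psmc2 (-0.25 ± 0.10). For 15 minus 2 mg/m3 they belonged to Psmd6 (-0.18 ± 0.09), Psmd5 (0.21 ± 0.11) and the ATPase Psmc6 (0.34 ± 0.19). For 2 minus 1 mg/m3 they belonged to Psmb5 (-0.19 ± 0.09), Psmc2 (-0.18 ± 0.10) and the cap scaffold Psmd1 (-0.24 ± 0.14). Limma's adjusted p was 1.00 for each of these 9 values, and 5, 1 and 1 of 34 members had an unadjusted p under 0.05 in the 3 contrasts. Over all genes the share was 4.27%, 2.92% and 1.75%. Psmd6, Psma2, Psmc2 and Psmd5 were also called between the air rats of the 3 sets at week 0, described below. Each dose has its own air rats, so a difference of dose cannot be told apart from one between the sets.

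Of 25 other genes of the pathway, 20 were measured, and Ddi2, Sem1, Paaf1, Rps27a and Uba1 were not analysed here. The measured genes were the immunoproteasome genes, regulators and partners such as the assembly factor Pomp and Nfe2l1, and ubiquitin genes and shuttles. In silica against air, 2 of the 20 were called at week 16, 1 higher and 1 lower, against 4.78% of all genes. Among genes detected on all arrays the share was 7.77%, but the 20 were not limited to such genes. A count of 2 is too small to set their share apart from these. In each of the other 7 comparisons 0 of the 20 were called by limma. Their median difference at week 16 was 0.05. Psmb9 was the higher one, and at week 0 after 15 mg/m3 it differed by 0.35 ± 0.15 (limma's adjusted p 0.440).

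The lower one was Adrm1, the ubiquitin receptor that docks on the cap. It was 8.92, 8.86, 8.79 and 8.91 in air rats at week 16 and 8.91, 8.56, 9.18, 7.62, 8.11, 8.58, 7.61 and 7.43 in silica rats, so that 2 of 8 silica rats lay above the air mean and the groups overlapped. The difference was -0.62 ± 0.18 (limma's adjusted p 0.0323). Leaving out 1 rat at a time ended this call in 7 of 12 cases, and the call of Psmb9 in 1 of 12 (adjusted p 0.0677 without air rat 4). With only the compared groups the adjusted p was 0.316 for Adrm1 and 0.0867 for Psmb9, and in the first 4 column runs 0.154 and 0.125.

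More members were called over the weeks than between silica and air. Among the air rats of 15 mg/m3, 22 of 34 members were called in the F test over 6 weeks, against 31% of all genes. In silica rats 26 of 34 were called, against 45.9% of all genes. Since 30 of 34 members were detected on every array, the same was counted over the 6033 genes detected on all arrays: 49.9% of these were called in air rats and 22 of the 30 members among them (73.3%), and in silica rats 73.6% and 26 of 30 (86.7%). Of the called members, 22 were called in both arms and 4 in silica rats alone (Psmb5, Psmc4, Psmb7 and Psmb1), and the interaction test above called none of those as different between arms.

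By role, the air and silica rats had 4 and 4 of 7 alpha-ring genes called, 3 and 4 of 4 non-catalytic beta genes, 1 and 3 of 3 catalytic genes, 3 and 4 of 6 ATPases and 7 and 7 of 10 non-ATPase cap genes. Both chaperones and both PA28 genes were called in each arm. In air rats the members of lowest p were Psmb2, Psme1, Psmb6, Psmd5, Psmb3, Psmb4, Psmd11, Psmd3, Psmc1, Psmd1, Psmd9 and Psmd13. In silica rats they were Psmb2, Psmb3, Psmb4, Psmc1, Psme1, Psmb6, Psmd9, Psma7, Psmb5, Psme2, Psmc5 and Psmb1. Psma1, Psma3, Psma6, Psmc3, Psmc6, Psmd2, Psmd4 and Psmd8 were called in neither arm, and 4 of these 8 were not detected on all arrays.

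**Figure D3:**
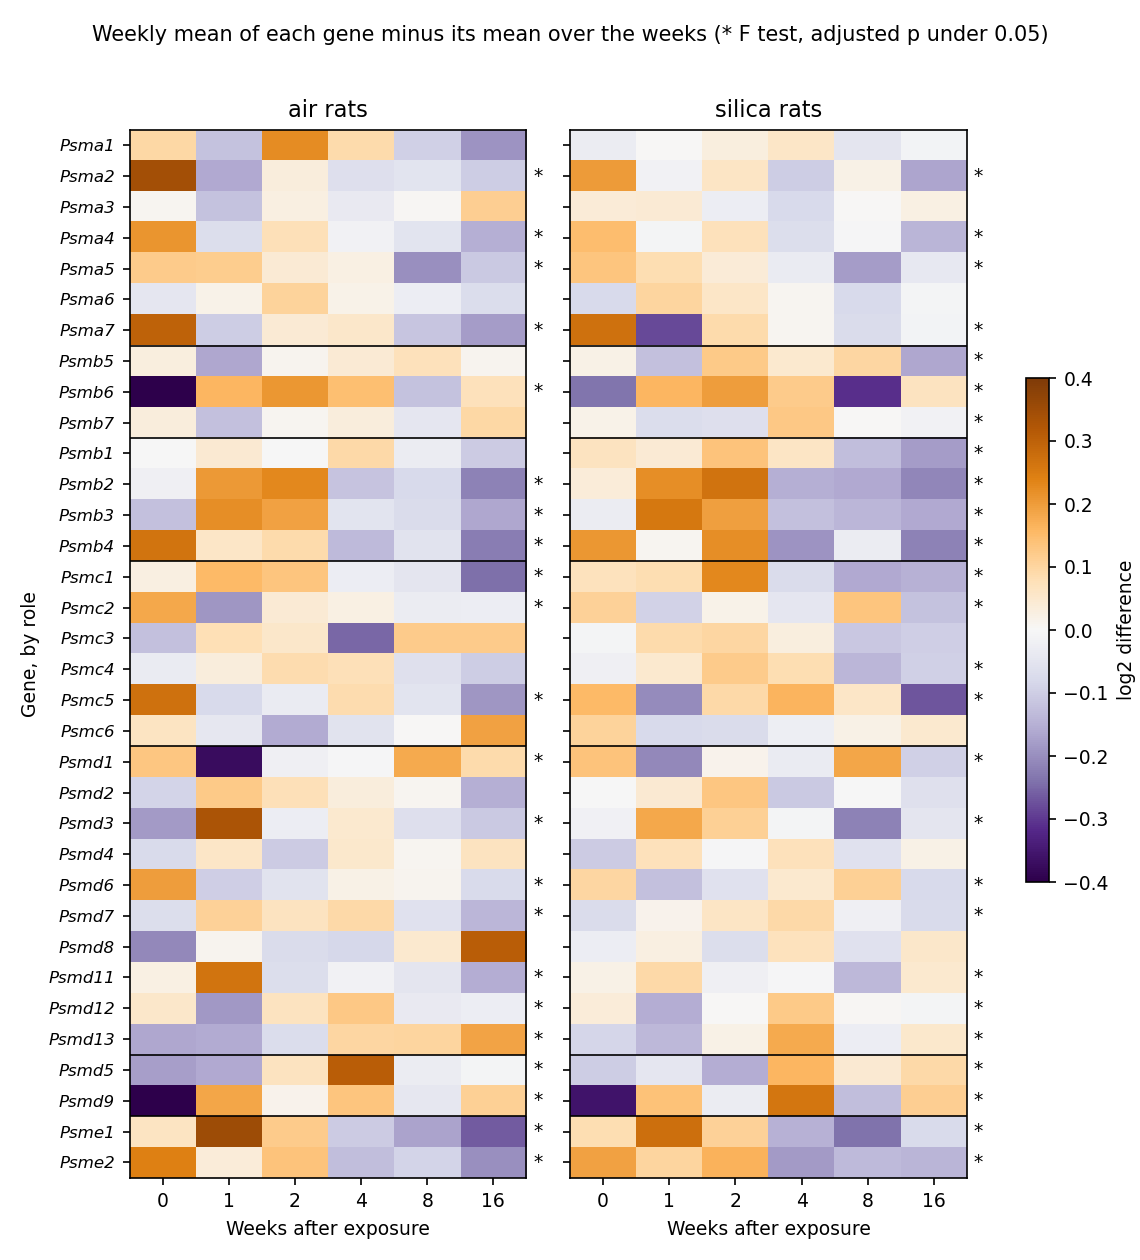
Mean log2 intensity of each of the 34 members (rows, by role) at each week minus that member's mean over the 6 weeks of the same arm, for air (left) and silica rats (right) of the 15 mg/m3 set, with the colour scale ending at -0.4 and 0.4 and stars for an adjusted p under 0.05 in the F test over weeks. Stars stand beside 22 members in air and 26 in silica rats, and Psmb6 and Psmd9 lie at the low end of the scale at week 0 in air rats.

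Of the non-catalytic beta genes, Psmb2 peaked at week 2 and Psmb3 at week 1 in both arms. In air rats Psmb2 was 10.34, 10.21, 10.35 and 10.42 at week 0, then 10.60, 10.46, 10.64 and 10.60 at week 2, and 10.14, 10.07, 10.17 and 10.13 at week 16. No air rat of week 16 reached any of week 2, and week 0 lay between them in its mean (10.33, against 10.58 and 10.13). In silica rats it was 10.16 to 10.45 (median 10.34) at week 0, 10.44 to 10.69 (median 10.56) at week 2 and 9.95 to 10.16 (median 10.10) at week 16. The same weeks were highest and lowest in both arms, with a span between weekly means of 0.45 in air and 0.48 in silica rats. Limma's F was 12.3 in air rats (adjusted p 4.36e-07) and 32.4 in silica rats (adjusted p 9.22e-16).

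Psmb3 had air means of 9.68, 10.02, 9.99, 9.75, 9.73 and 9.64 over weeks 0, 1, 2, 4, 8 and 16, and silica means of 9.80, 10.09, 10.03, 9.70, 9.69 and 9.67. Week 1 was highest and week 16 lowest in both arms (limma's F 7.68 and 19.2, adjusted p 9.18e-05 and 3.92e-11). Psmb4, another non-catalytic beta gene, was lowest at week 16 in both arms too, at 11.47 in each, but was highest at week 0 in air rats (11.96) and at week 2 in silica rats (11.91). Psmb1 was called over weeks in silica rats (F 9.02, limma's adjusted p 5.03e-06) and had F 1.28 in air rats (adjusted p 0.417).

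The catalytic gene Psmb6 was lowest at week 0 in air rats. There it was 10.18, 10.56, 10.24 and 10.28 at week 0 and 10.96, 11.05, 10.92 and 11.02 at week 2, without overlap. In silica rats it was 10.10 to 10.83 (median 10.45) at week 0, 10.77 to 11.11 (median 10.93) at week 2 and 10.26 to 10.62 (median 10.41) at week 8. Its span of 0.67 in air rats was a 1.59-fold range (limma's F 8.45, adjusted p 3.48e-05), and in silica rats the span was 0.51 (F 12.3, adjusted p 7.26e-08). The chaperone Psmd9 was lowest at week 0 in both arms, with 9.42 in air and 9.41 in silica rats against 10.01 and 9.90 at week 1 (limma's F 5.57 and 11.8, adjusted p 0.00151 and 1.34e-07).

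The activator gene Psme1 was highest at week 1 in both arms. Air rats had 13.28, 13.20, 13.42 and 13.42 at week 1 and 12.75, 12.68, 12.71 and 12.72 at week 16, which do not overlap, and silica rats had 13.10 to 13.50 (median 13.31) at week 1 and 12.62 to 12.91 (median 12.85) at week 8. Limma's F was 9.33 in air rats (adjusted p 1.23e-05) and 13.2 in silica rats (adjusted p 2.61e-08). Psme2 was highest at week 0 in both arms (F 4.90 and 10.1, limma's adjusted p 0.00374 and 1.17e-06).

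The alpha-ring genes Psma7 and Psma2 were highest at week 0 in both arms. Psmd1 and Psmd5 had other high weeks, while the cap genes Psmc2, Psmc5 and Psmd6 were highest at week 0 in air rats. Psma7 had means of 10.48 in air and 10.46 in silica rats at week 0, against 10.09 and 9.90 at week 1 (limma's F 5.24 and 11.7, adjusted p 0.00235 and 1.51e-07). Psma2 was 10.99, 10.62, 11.01 and 11.21 in air rats at week 0 and 10.72, 10.33, 10.38 and 10.38 at week 1, with 1 rat of week 1 above the lowest of week 0 (limma's F over weeks 3.88, adjusted p 0.0147). The cap scaffold Psmd1 was lowest at week 1 and highest at week 8 in both arms (F 6.20 and 6.69, limma's adjusted p 0.000638 and 0.000133). The chaperone Psmd5 was highest at week 4 in both arms, at 7.89 in air and 7.78 in silica rats (F 7.79 and 7.22, limma's adjusted p 7.98e-05 and 6.26e-05).

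**Figure D4:**
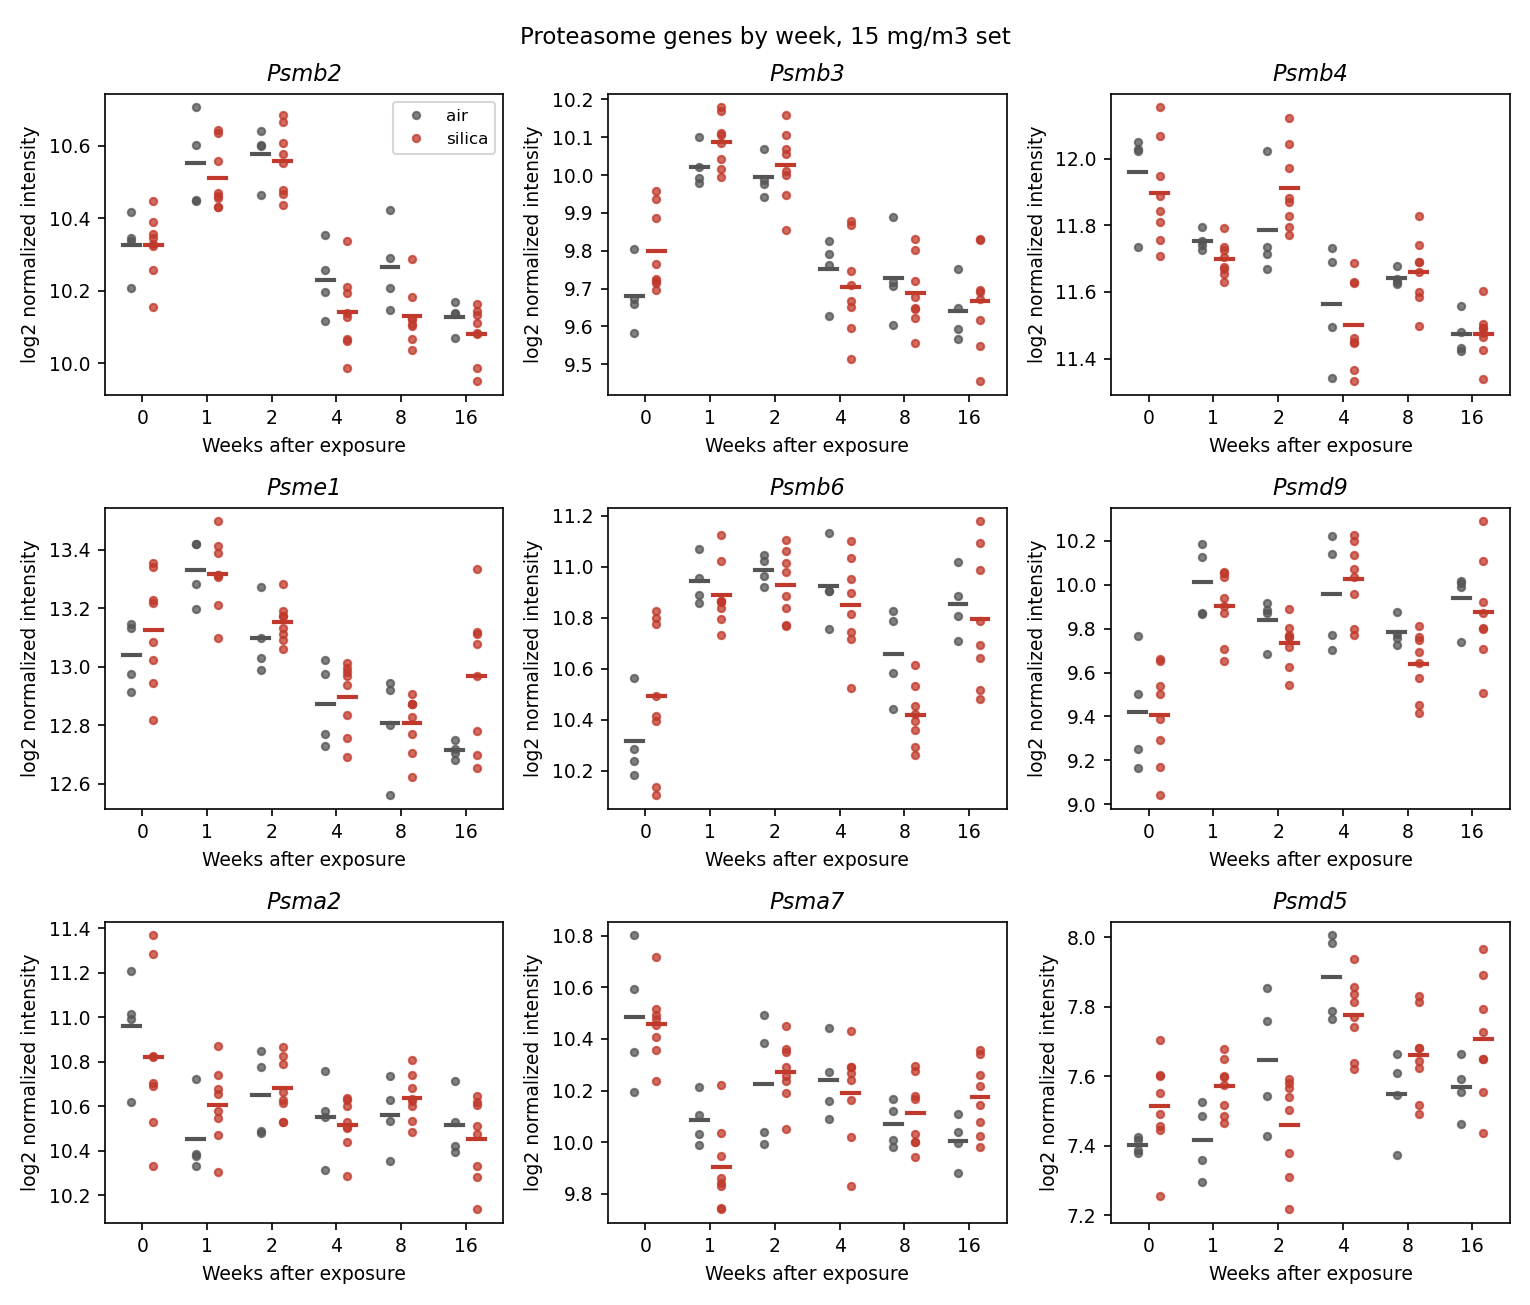
Log2 intensity by week after exposure of Psmb2, Psmb3, Psmb4, Psme1, Psmb6, Psmd9, Psma2, Psma7 and Psmd5 in air (grey) and silica (red) rats of the 15 mg/m3 set (points are rats, bars are group means). Mean Psmb2 is lowest at week 16 in both arms, at 10.13 and 10.08, and mean Psmb6 starts at 10.32 in air and 10.49 in silica rats.

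Of the 22 members called in both arms, 14 had the same highest week and 11 the same lowest week in air and silica rats. The correlation of the 6 weekly means between arms had a median of 0.79 over the 34 members and 0.57 over all genes, given as a description, since the rats of a week also share a kill. The median span between the highest and lowest weekly means was 0.38 in air and 0.30 in silica rats for members, and 0.31 and 0.25 for all genes. These correlations and spans of all genes were not limited to genes detected on all arrays, as most members were. Air means rest on 4 rats and silica means on 8, so spans and numbers of calls are not directly comparable between arms. The lowest week was week 16 for 11 of the 22 members called in air rats and for 10 of the 26 called in silica rats. Over the same weeks 5 of 12 erythroid markers were called in air and 9 in silica rats (air means 10.44 at week 1 and 10.79 at week 16), and 7 and 9 of 9 T cell markers (air means 9.87 at week 0 and 9.57 at week 16). Of 11 neutrophil markers, 5 were called in air and 11 in silica rats, with silica means of 8.51 at week 0 and 9.04 at week 16. The part of these markers in the members' course was not tested. Week after exposure, age and the handling of each kill cannot be told apart.

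Of the 20 other pathway genes, 11 were called over the weeks in air rats, against 31% of all genes, and 13 in silica rats, against 45.9%. Among genes detected on all arrays the shares were 49.9% and 73.6%, but the 20 were not limited to such genes. Whether the 20 were called more often than other genes was not tested, so these counts are not read as a result about them. Adrm1 had the lowest p of them in air rats (F 13.4), with means of 8.21, 7.38, 7.84, 8.51, 8.63 and 8.87 over the weeks, and silica means of 7.81, 7.14, 7.69, 8.60, 8.63 and 8.25. Its week 1 was lowest in both arms. Other called genes in air rats included the deglycosylase Ngly1, the cap deubiquitinase Uchl5, and Psmb10.

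Air rats at week 0 exist in all 3 exposure sets and received no silica. The 4 of the 15 mg/m3 set lie in column runs 1 to 4 and the 8 of the other sets in runs 5 to 8, so that among these air rats set and run cannot be told apart. With the run as a block over all 96 arrays, 14 members were called in place of 13. That block draws on other arrays for the run differences, among them 15 mg/m3 silica rats of every run. No air rat of the 15 mg/m3 set lies in runs 5 to 8, so the block cannot tell set and run apart among the air rats. The test over the 3 sets was added after the data were seen. Over the 3 sets, 13 of 34 members were called, against 11.7% of all genes. Among genes detected on all arrays 21.7% were called, and 13 of the 30 members there (43.3%). The called members of lowest p were Psmd3, Psmd6, Psme2, Psma2, Psmb4, Psmc2, Psmd5, Psmb6, Psmb7, Psma4, Psmb3 and Psmd9. Of the 20 pathway genes, 5 were called, among them the segregase Vcp and Ngly1. Among blood cell markers, 2 of 5 for B cells, 2 of 4 for platelets and 2 of 11 for neutrophils were called. So were 1 of 12 erythroid and 1 of 9 T cell markers, and no monocyte or NK marker. Their part in the members' values was not tested.

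The lid subunit Psmd3 was 9.56, 9.67, 9.72 and 9.28 in the air rats that belonged to the 15 mg/m3 set, 9.95, 10.07, 9.92 and 10.00 in the 1 mg/m3 set and 9.97, 9.83, 9.88 and 10.12 in the 2 mg/m3 set. The 15 mg/m3 set lay below both others without overlap (limma's F 12.8, adjusted p 0.000704). Psmd6 ran the other way, with 10.42, 10.35, 10.60 and 10.55 in the 15 mg/m3 set, 10.07, 10.12, 10.25 and 10.15 in the 1 mg/m3 set and 10.16, 10.34, 10.12 and 10.18 in the 2 mg/m3 set (F 12.7, limma's adjusted p 0.000728). All 4 rats of the 15 mg/m3 set lay above the 8 others.

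Psma2 was 10.99, 10.62, 11.01 and 11.21 in the 15 mg/m3 set, 10.24, 10.32, 10.48 and 10.56 in the 1 mg/m3 set and 10.42, 10.78, 10.40 and 10.52 in the 2 mg/m3 set (F 10.2, limma's adjusted p 0.00285). Psmb6 was 10.18, 10.56, 10.24 and 10.28 in the 15 mg/m3 set and 10.42 to 11.02 in the other sets (F 7.38, limma's adjusted p 0.0153). For both genes the means of the 1 and 2 mg/m3 air rats lay nearer to those of weeks 1 to 16 of the 15 mg/m3 set than to its week 0. With only the 12 arrays compared, 3 of 34 members were called, against 626 of 12306 genes. Without air rat 4 of the 15 mg/m3 set, 7 of 34 members were called, and the share over all genes in that fit is not reported here.

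**Figure D5:**
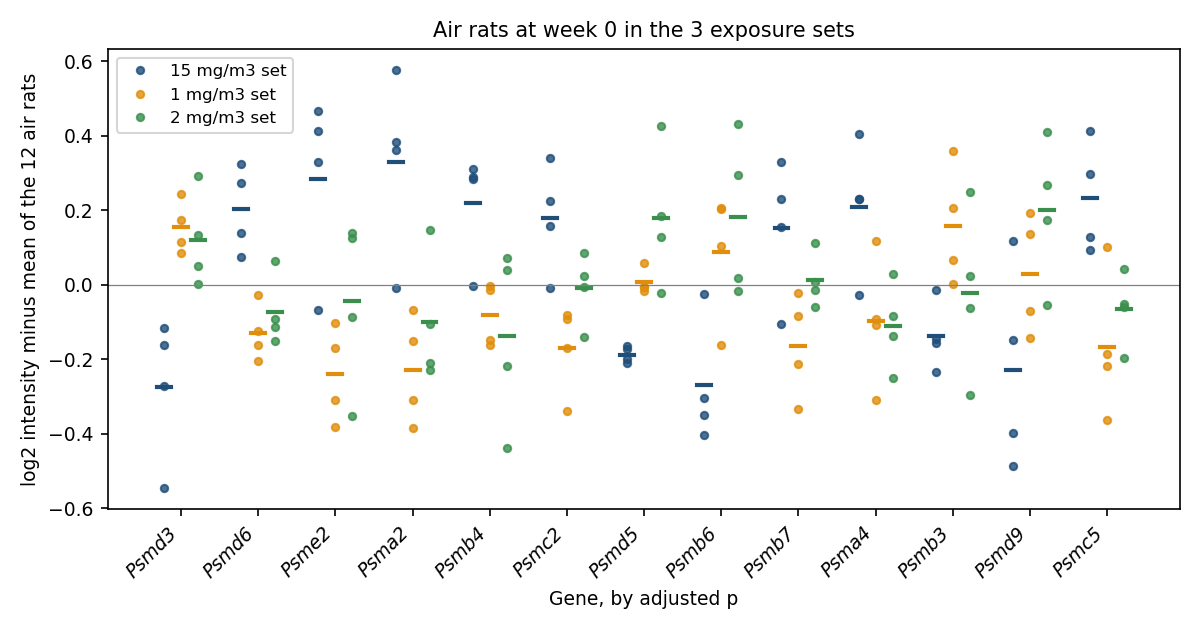
Log2 intensity minus the mean of the 12 air rats at week 0, for the 13 members called over the 3 exposure sets (points are rats, bars are means, 4 rats a set). All 4 rats of the 15 mg/m3 set lie below the 8 others for Psmd3 and above them for Psmd6.

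The members did not move as 1 block among themselves. Over the 561 pairs of members, the correlation of deviations from group means across the 96 arrays had a median of 0.086, with quartiles of -0.10 and 0.25, against a median of 0 with quartiles of -0.11 and 0.11 for pairs of all genes. A value above 0.3 was found in 17.8% of member pairs and 5.02% of all pairs. All points share array quality and the makeup of the blood sample, so these values are descriptions. Of the 34 members, 30 were detected on all arrays, and the pairs of all genes were not limited to such genes. The highest pairs were Psma2 with Psma4 (0.75), Psma4 with Psma5 (0.65), Psma1 with Psmc6 (0.63) and Psmb6 with Psmd9 (0.62). The lowest were Psmc2 with Psmd9 (-0.63), Psma2 with Psmb6 (-0.63) and Psma2 with Psmd9 (-0.61).

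Averaged over its pairs with the other members, Psme2 had the highest mean correlation (0.18), then Psmb2 (0.17), and Psmd9 the lowest (-0.08).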

How the data were processed

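Blood RNA of 96 rats was measured on Illumina rat BeadChips, at 1 array a rat, in 16 groups. The deposited intensity values are those of the non-normalized table, per the file headers, beside a detection p-value per row and array, as deposited. The authors' normalized log2 values of the same arrays were deposited as a further table, and were used as an alternative only. BeadStudio, limma and lumi are named, per the submitters' processing notes, and their roles and versions are not given in the sources used here. A total of 192 columns of per-array values had no use here.

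Intensities were corrected by normexp (offset 16) with the background taken from detection p-values, quantile normalized and put on the log2 scale with limma 3.58.1 in R 4.3.3. For the background estimate only, 626 rows whose detection p-values lay off the grid of 825 steps (tolerance 0.01) were left out, a change made after the data were seen. Rows with detection p under 0.05 on 4 or more arrays were kept (12368 of 21792), with the brightest row per gene. Names came from the Entrez ID for 16866 rows, from the symbol for 144 and from the file itself for 4782.

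A mean per group was fitted over all 96 arrays with limma's lmFit and eBayes, and p-values were adjusted (Benjamini-Hochberg) over 12306 genes. Intervals are 95% intervals of the moderated test. Silica was compared with air rats of the same set and week, silica differences between weeks and doses by interaction, and weeks by F tests within each arm. The F test over air rats of the 3 sets and the fit on the first 4 column runs were added after the data were seen. In each comparison the text names every called member, at most 12 by lowest p, or the 3 of lowest p where fewer than 3 were called. Members described further were chosen after their values were seen. The members and lists were chosen with earlier results of these data known. The pathway list, marker lists and motifs were written down with the tests. Values of some pathway genes are not reported here. Rats are separate animals, and the number of arrays limits the precision. The fit was tested on simulated data.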

Additional observations from a re-analysis of the deposited data

Results flagged for a closer look

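In the members named above, 246 groups of 4 or 8 rats were searched for a rat whose gap to the nearest other rat exceeded Dixon's limit (a share of the group's range), and 11 were found, where chance gives about 1 group in 20. In air rats of the 15 mg/m3 set, Psmb4 was 11.74 in rat 2 at week 0 (nearest 12.02), Psmd1 was 7.53 in rat 2 at week 1 (nearest 7.09), and Psmd13 was 9.36 in rat 2 at week 2 (nearest 9.20). Psmc4 was 10.57 in rat 3 at week 4 (nearest 10.44), and Psmd11 was 11.25 in rat 2 at week 8 (nearest 11.16). At week 16 air rat 1 stood apart for both Psmc1, at 9.74 (nearest 9.52), and Psmd9, at 9.74 (nearest 9.99). In silica rats after 15 mg/m3, Psmd8 was 5.78 in rat 8 at week 0 (nearest 5.32), Psmd3 was 9.72 in rat 5 at week 8 (nearest 9.53), and Psmc5 was 6.91 in rat 5 at week 16 (nearest 7.38). In air rats of the 1 mg/m3 set Psmd5 was 7.65 in rat 2 (nearest 7.58).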

How the results depend on the processing

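Each count of called members was recomputed under 9 other settings and without each rat, and the comparisons of 15 mg/m3 silica with air also in the first 4 column runs, added after the data were seen. The week 16 count of 1 became 2 with the stock neqc of limma, 2 without background correction, 2 with the authors' deposited values, 2 with rows detected on at least 48 arrays, 3 with the column run as a block, 0 with only the groups compared (62 genes of all then) and 0 in the first 4 column runs (184 genes). The further call was Psmb7 with stock neqc (limma's adjusted p 0.0434), without background correction (0.0452) and with the stricter filter (0.0469), Psmd11 with the authors' values, and both with the run block (0.0178 for Psmb7). The count of 13 over air sets became 3 with only the groups compared (626 genes). The cause of these shifts was not tested. Leaving out 1 rat gave 1 to 3 at week 16 (2 without silica rat 1, 2, 5 or 7 or air rat 1, and 3 without silica rat 3), 18 to 23 over weeks in air rats, 24 to 26 in silica rats and 7 to 15 over air sets, where 7 came without rat 4 and 8 without rat 3 of the 15 mg/m3 set, and 0 in every other comparison. The 117 named values had 1090 alternatives, not counting the fits without a rat. Of these, 1060 kept the call and, except for F tests, the direction, 24 lost the call, 6 gained it and 0 turned their sign. Without a rat some small values that were not called did turn. Psmb8 ran from -0.122 to 0.0439 at week 1 and from -0.107 to 0.0282 at week 4, and Psmb10 from -0.0570 to 0.00809 at week 4. Same-numbered rats of different groups were not paired (32 pairs, 6 with a correlation of deviations above 0.1, range -0.317 to 0.266), and with the replicate block the week 16 count was 1 and no count changed. The alternative with other rows of a gene could not be run, since every member has 1 row. Dim members (Psma3, Psmc6, Psmd8) are limited by signal over background.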
